A study of Mus musculus with 2 samples.

Results

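The genes described here are 4 interferon-induced transmembrane genes, Ifitm1, Ifitm2, Ifitm3 and Ifitm6, and Bst2, which encodes tetherin. They were taken by symbol from the count files, which list 23238 genes, and all 5 were found, each with well over the 50 reads set as the floor for comparing a gene. The cells were dendritic cells grown from the bone marrow of female C57BL/6 mice, 7 weeks old, in medium with 20 ng/ml of the growth factor GM-CSF that was given again on day 3. The non-adherent and loosely attached cells were taken on day 6. The control group is 1 library, and the labels do not say what these cells received. The UNE-C1 group is 1 library, from cells treated at 100 nM over 24 h. The agent is a piece of the enzyme cysteinyl-tRNA synthetase that is known to act through Toll-like receptors, and the study asked which signalling molecules it induces. With 1 library in a group there is no replicate error and no test, so every difference below is a difference between 2 libraries, and every interval covers counting error only.

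Ifitm proteins are short membrane proteins that sit in the cell surface and in endosomes and hinder the fusion of enveloped viruses with the membrane of the cell. Ifitm3 works mainly in late endosomes, where many viruses enter, and Ifitm1 lies more at the cell surface. Tetherin acts at the opposite end of infection: it is anchored in the membrane at both of its ends, by a transmembrane stretch and by a lipid (GPI) anchor, and it holds budding virus particles on the cell. In mice tetherin is also known as PDCA-1 and is used to stain plasmacytoid dendritic cells. Several of these genes, Ifitm3 and Bst2 among them, are known as interferon-stimulated genes. Transcription factors that carry the type I interferon signal, Stat2 and Irf9 among them, act through a DNA element called ISRE.

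Ifitm1, Ifitm2, Ifitm3 and Ifitm6 lie in a cluster of 63.1 kb on chromosome 7, from 140954837 to 141017924 in GENCODE M21 on GRCm38, the assembly that is also called mm10. Ifitm2 (140954837 to 140955987), Ifitm3 (141009586 to 141010770) and Ifitm6 (141015699 to 141017924) are read from the minus strand and Ifitm1 (140967221 to 140969825) from the plus strand. Bst2 lies on chromosome 8 from 71534255 to 71537456 on the minus strand. The stretch around the start of transcription is shown for the 3 members whose searched window holds the core of the ISRE. They were picked since they are also the 3 with the highest fold changes, although Ifitm2 stayed below 2-fold. Whether the element bears on the levels was not tested. The core is GAAA, any 2 bases and GAAA again. Each sequence runs 5′ to 3′ from 150 bases before the RefSeq start of the gene to 30 bases from it, on the strand of the gene, with matches to this core in capitals.
Ifitm3: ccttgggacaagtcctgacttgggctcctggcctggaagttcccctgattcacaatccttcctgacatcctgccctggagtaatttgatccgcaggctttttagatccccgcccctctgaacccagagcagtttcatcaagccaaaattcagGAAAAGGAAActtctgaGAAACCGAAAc
Bst2: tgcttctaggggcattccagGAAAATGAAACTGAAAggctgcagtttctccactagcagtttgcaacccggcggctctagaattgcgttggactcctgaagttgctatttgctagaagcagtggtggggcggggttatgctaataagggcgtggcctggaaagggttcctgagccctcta
Ifitm2: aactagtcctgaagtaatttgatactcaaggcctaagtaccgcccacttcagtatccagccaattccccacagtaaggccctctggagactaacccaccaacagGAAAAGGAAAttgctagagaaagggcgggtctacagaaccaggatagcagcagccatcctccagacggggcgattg

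The printed sequences, from RefSeq on GRCm38.p6, lie at chr7:141010715-141010894 for Ifitm3, chr8:71537443-71537622 for Bst2 and chr7:140955932-140956111 for Ifitm2, all on the minus strand. In Ifitm3 the 2 matches begin 3 and 20 bases from the RefSeq start, inside the transcript. In Bst2 the 2 matches overlap and begin 130 and 124 bases before the start. Ifitm2 holds 1 match, with the same letters as the first of Ifitm3, 46 bases before its start. No match was found in the windows of Ifitm1 and Ifitm6, but their RefSeq starts lie 855 and 1032 bases inside the longest GENCODE gene model, so that other starts of these genes were not searched. The second element searched was GAS, the gamma-activated site, with the letters TTCNNNGAA. Ifitm3, Bst2 and Ifitm6 each hold 1 such match (TTCTGAGAA, TTCCAGGAA and TTCCTTGAA), and in Ifitm3 and Bst2 it overlaps an ISRE match. A kappaB-like word, GGGA, any base and TTTCC, was not in any of the 5 windows. All words were searched on both strands from 250 bases before to 50 bases after the start.

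Across all RefSeq windows of this length, 3.44% of 32851 hold the ISRE core, 8.30% hold TTCNNNGAA and 0.411% hold the kappaB-like word. A window could be matched to 8057 of the compared genes. Genes with 2 or more ISRE matches, the class of Ifitm3 and Bst2, numbered 32, and 20 of them (62.5%) were higher with UNE-C1 by 2-fold or more. Without Ifitm3 and Bst2 these counts were 18 of 30 (60%). Of the 302 genes with 1 match, the class of Ifitm2, 69 (22.8%) were 2-fold higher, and of the 7723 genes without a match, 647 (8.38%). For GAS, 75 of the 650 genes with a match (11.5%) were 2-fold higher, and 661 of the 7407 without one (8.92%). For the kappaB-like word these counts were 8 of 48 (16.7%) and 728 of 8009 (9.09%). A list of interferon-stimulated genes, described below, had a window for 21 genes, and 10 of these held the ISRE core. The ISRE classes by number of matches were set after the windows of the members had been seen, and overlapping matches were counted separately. The 2 overlapping matches of Bst2 thus place it in the class of 2 or more. These shares do not test whether the element bears on the levels. A match describes the letters of a window and does not show that a factor binds there.

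Ifitm3 and Bst2 were the members that differed between the libraries by more than 2-fold. Levels are given as CPM, the read count scaled to library size with TMM (a method that sets the scale by the bulk of the genes), and fold changes as log2((CPM + 1)/(CPM + 1)), UNE-C1 over control, unless a plain ratio of CPM is named. Of the 5 members, 2 were higher by 2-fold or more and none was lower by as much, against 9.31% of the 10469 compared genes higher and 9.42% lower. At 4-fold the same 2 members passed, against 3.01% of compared genes. The median of the members was 0.60 and that of all compared genes -0.00. The number of members at least 2-fold higher was 2 under all 10 alternative settings. Those that change only the floor could not alter it, and taking the largest entry of a repeated symbol left the 5 fold changes almost unchanged. Under the others the members stayed far from the 2-fold mark. Ifitm3 and Bst2 lay between 2.47 and 2.97, and the other members at 0.61 or below. With plain library totals in place of TMM the median gene moved to -0.33, and 657 genes were higher and 1693 lower (28.0% higher of those changed), against 975 and 986 (49.7%) with TMM.

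**Figure D1:**
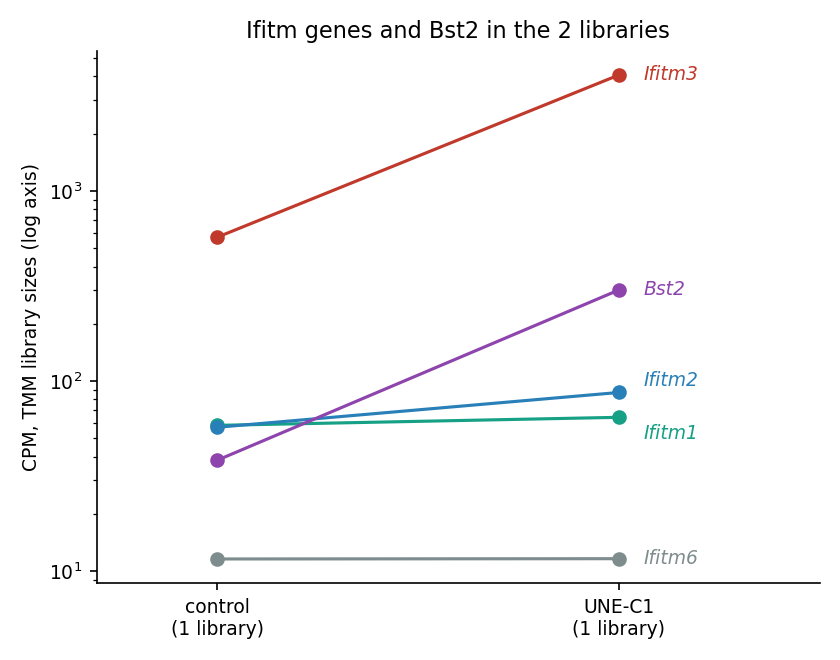
Level of each gene in the control and the UNE-C1 library, in CPM on a log axis; each point is 1 library, and lines join the values of a gene. Ifitm3 goes from 571 to 4069 CPM and Bst2 from 38.4 to 301 CPM, while the lines of Ifitm1 and Ifitm6 are nearly flat.

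Ifitm3 had 9557 reads in control cells and 57718 with UNE-C1, or 571 and 4069 CPM. The UNE-C1 library is the higher of the pair, 7.12-fold by plain ratio (counting interval 6.97 to 7.28), with a log2 fold change of 2.83. Ifitm3 was already an abundant transcript in the control, 178th of all genes by reads, and was 21st in the UNE-C1 library, where it made up 0.361% of all reads against 0.0643% in the control. Of the 383 other genes within 2-fold of its control level, 36 (9.40%) were at least 2-fold higher, and 3 had a fold change as high as its own: the chemokine gene Ccl5, the acute-phase gene Saa3 and AA467197. These 3 were picked out after their values were seen. Among all compared genes Ifitm3 ranked 143rd by fold change.

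Bst2 had 642 and 4274 reads, or 38.4 and 301 CPM. It was 7.85-fold higher in the UNE-C1 library (interval 7.23 to 8.55), with a log2 fold change of 2.94 and rank 127 of all compared genes. Its control level was ordinary, with 3903 other genes within 2-fold of it, of which 281 (7.20%) were at least 2-fold higher. The number of those genes with a fold change at least as high as that of Bst2 was 30. Tetherin and Ifitm3 thus stood at different levels and at much the same fold. The ratio of Ifitm3 to Bst2 reads was 14.9 in control and 13.5 with UNE-C1, a change of 0.907-fold (interval 0.833 to 0.988) that does not depend on the scaling of the libraries.

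Ifitm2 was the member in between. It had 956 and 1235 reads, or 57.1 and 87.1 CPM, a ratio of 1.52 (interval 1.40 to 1.66) and a log2 fold change of 0.60, which 17.6% of compared genes exceeded. With plain library totals its log2 fold change was 0.26. Against Ifitm2, which lies in the same cluster with Ifitm1 between them, Ifitm3 gained 4.67-fold (interval 4.28 to 5.10, ratio of reads in UNE-C1 over that in control), a value free of the scaling.

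Ifitm1 and Ifitm6 differed little between the libraries. Ifitm1 had 978 and 914 reads, or 58.4 and 64.4 CPM, with a ratio of 1.10 (interval 1.01 to 1.21) and a log2 fold change of 0.14 that was -0.20 with plain library totals. Ifitm6, a family member known from myeloid cells and less studied than the others, had 194 and 165 reads, or 11.6 CPM in each library. Its ratio was 1.00 (interval 0.810 to 1.24) and its log2 fold change 0.00, or -0.31 with plain totals. For both genes the sign therefore depends on the scaling, and neither reached 2-fold under any setting tried. Of the 10 pairs of members, the change in the ratio of their reads had an interval that takes in no change in 1, Ifitm1 to Ifitm6 (1.10-fold, interval 0.876 to 1.38).

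**Figure D2:**
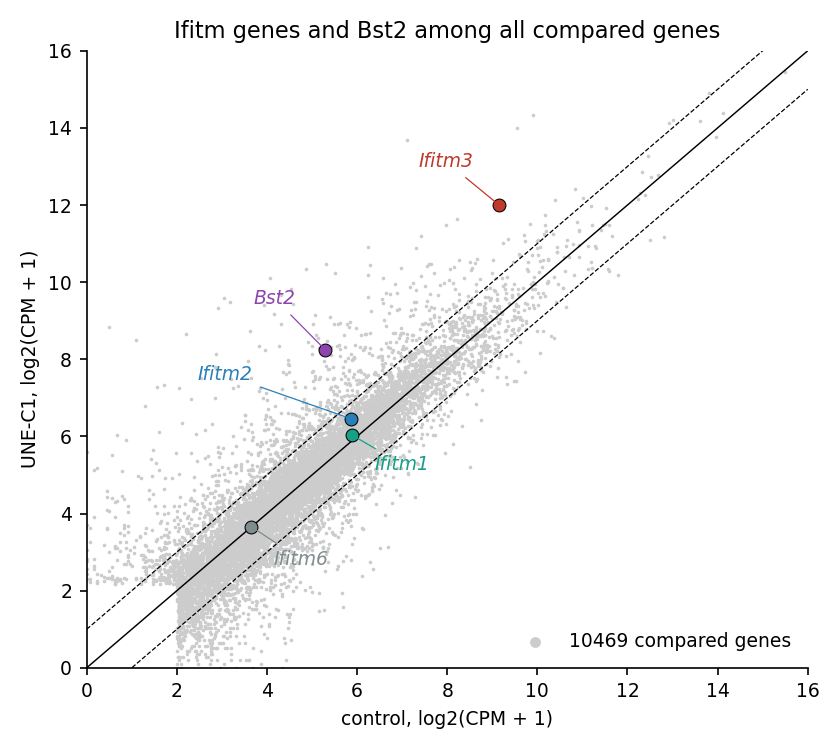
Level of the 10469 compared genes (grey) and of the 5 members (coloured) in the control (x axis) and the UNE-C1 library (y axis), both as log2(CPM + 1); the solid line marks equal levels and the dashed lines 2-fold differences. Ifitm3 and Bst2 lie above the upper dashed line, at log2 fold changes of 2.83 and 2.94, and Ifitm1, Ifitm2 and Ifitm6 lie between the dashed lines.

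The make-up of the Ifitm transcripts was uneven in both libraries and more so with UNE-C1. Of the 11685 reads on the 4 Ifitm genes in the control, Ifitm3 took 81.8% (exact binomial interval 81.1 to 82.5), Ifitm1 8.37% and Ifitm2 8.18%, and Ifitm6 took 1.66%. Of the 60032 such reads in the UNE-C1 library Ifitm3 took 96.1% (interval 96.0 to 96.3), Ifitm2 2.06% (1.95 to 2.17), Ifitm1 1.52% (1.43 to 1.62) and Ifitm6 0.275% (0.235 to 0.320). Most of the added reads lay on Ifitm3. The shares of Ifitm1, Ifitm2 and Ifitm6 were lower with UNE-C1, although the CPM of none of the 3 was with TMM (with plain totals that of Ifitm1 and Ifitm6 was, and with upper quartile factors that of Ifitm6).

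**Figure D3:**
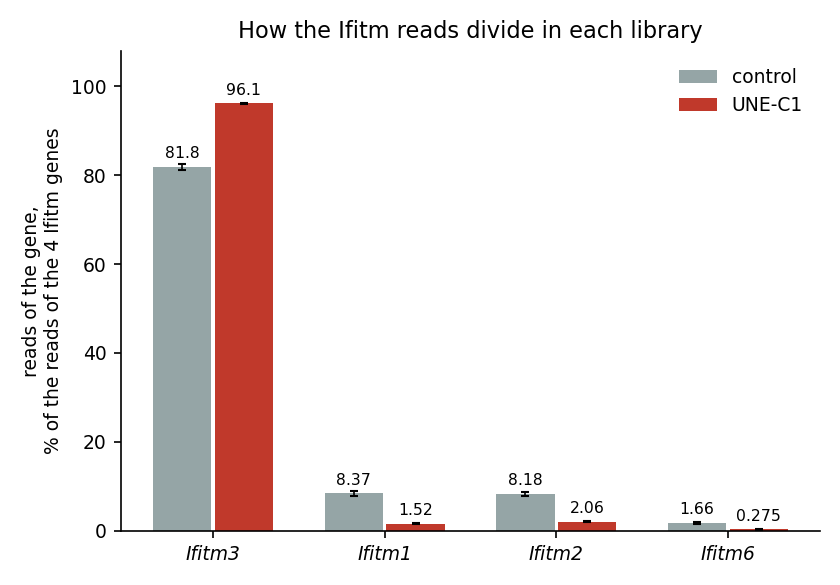
Share of the reads of the 4 Ifitm genes taken by each gene, in % (y axis), in the control (grey) and the UNE-C1 library (red); bars start at 0 and error bars are exact 95% binomial intervals, which cover counting error only. Ifitm3 goes from 81.8% to 96.1% and each of the other bars is lower with UNE-C1.

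The order of the levels per kb changed at Bst2 alone. The labels name a QuantSeq kit, a kind that reads messenger RNA near its 3′ end, but the catalogue number beside it may belong to a kit that reads along the whole transcript, and which was used could not be settled here. Levels are therefore compared per kb of transcript, which suits the second kind of kit. In the control the order by CPM per kb was Ifitm3 (842), Ifitm2 (87.2), Ifitm1 (79.4), Bst2 (48.4) and Ifitm6 (17.5). The intervals of Ifitm2 (81.8 to 92.9) and Ifitm1 (74.5 to 84.5) overlap, and by plain reads Ifitm1 is the higher of them. With UNE-C1, Bst2 (380 CPM per kb) stood second after Ifitm3 (6002), above Ifitm2 (133), Ifitm1 (87.5) and Ifitm6 (17.5), and no intervals of neighbours in this order overlap.

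Ifitm genes are alike in sequence, which bears on how reads could have been assigned to them, since the sources used here do not say how reads with several matches were treated. The main transcripts of the 4 genes are 655 to 736 bases long, and 66.9% (Ifitm1 and Ifitm6) to 76.9% (Ifitm2 and Ifitm3) of the aligned bases are identical. Of the words of 50 bases in the Ifitm3 transcript, 10.0% (63 of 629) also occur in a transcript of another gene, and none of the 251 in its last 300 bases do. For Ifitm1 the share was 7.72% (53 of 687), again with none near the 3′ end, and for Ifitm6 and Bst2 it was 0. Ifitm2 was the exception at 48.5% (294 of 606), with 69 of 251 in its last 300 bases. It shares these words with Gm45717, a gene model that overlaps it on the same strand, with 5 processed pseudogenes and, for 20 words, with Ifitm3. None of these 6 other models is among the genes counted. Gm45717 overlaps Ifitm2, so words shared with it can come from the same place on the chromosome. How the 294 words divide between Gm45717 and the pseudogenes was not worked out. The values for the last 300 bases apply only if reads lie near the 3′ end. By shared words the counts of Ifitm2 may be the least certain, but how many reads were lost or moved was not tested.

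Genes whose levels in the 2 libraries were most like those of each member were found by the distance between genes in log2(CPM + 1) of both libraries. For Bst2 these were Gbp7, an interferon-inducible GTPase (42.1 and 320 CPM, distance 0.158), Fam162a, a hypoxia-linked mitochondrial protein (34.4 and 315 CPM, 0.167), and Fgl2, a fibrinogen-like protein (42.0 and 274 CPM, 0.185), with 18 genes within 0.5. Ifitm3 had no gene within 0.5. Its nearest were Basp1 (920 and 2889 CPM, distance 0.846), Pkm, the glycolytic pyruvate kinase (650 and 2214 CPM), and Tapbp, which loads peptides on MHC class I (839 and 2376 CPM). Ifitm1, Ifitm2 and Ifitm6 lay among the bulk, with 821, 531 and 802 genes within 0.5. The nearest were Srd5a3, Herc1 and Ndufa11 for Ifitm1, Frmd8, Gab2 and Mreg for Ifitm2, and Vill, Hoxb4 and D230025D16Rik for Ifitm6. Likeness over 2 libraries says nothing more than that a level and a fold are close.

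Genes next to the members were taken by position alone, with a start site within 100 kb of that of a member. Around the Ifitm cluster 20 further genes are annotated, 11 were analysed here and 4 passed the floor. Of these 4, 2 were at least 2-fold higher and none lower, against 9.31% and 9.42% of all compared genes. Sirt3, a mitochondrial deacetylase (38 and 111 reads, ratio 3.45, interval 2.36 to 5.12), and Pkp3, a desmosome protein (102 and 231 reads, 2.67, 2.11 to 3.41), were more than 2-fold higher, the latter not with plain totals (log2 fold change 0.97). Psmd13 and Bet1l stood at 0.53 and 0.24. Of these genes, Sirt3 passed the floor only in the UNE-C1 library, which favours genes that are higher there. Sirt3 and Pkp3 lie outside the cluster, 73.7 kb from Ifitm2 and 60.3 kb from Ifitm6, while Ifitm1 and Ifitm6, which lie nearer to Ifitm3, differed little. Ifitm5, the bone member of the family, lies 5.70 kb from Ifitm2. Its 17 control reads stood against 1 with UNE-C1, a ratio of 0.0694 with an interval of 0.00166 to 0.443.

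Around Bst2, 16 genes are annotated, 13 were analysed here and 11 passed the floor. By the 2-fold mark 2 of them were higher and 1 lower, with a median of -0.00, against 9.31% and 9.42% of all compared genes. The 2 higher genes are those nearest on its 5′ side: Mvb12a, a subunit of the ESCRT-I sorting complex, 5.47 kb away (223 and 423 reads, ratio 2.24, interval 1.90 to 2.64), and Tmem221, 21.4 kb away (18 and 110 reads, 7.21, 4.36 to 12.6). Mvb12a fell short of 2-fold with plain totals, at a log2 fold change of 0.78, and Tmem221 stood at 1.83. Tmem221 and Abhd8 passed the floor only in the UNE-C1 library, and Fam129c only in the control. Such entry favours genes that are higher in the library concerned. Beyond them Slc27a1 was at 0.02, Pgls at -0.48 and Colgalt1 at -0.83, and Fam129c, on 51 and 14 reads, at -1.03. On the opposite side Plvap, 25.7 kb away, had 4 reads in each library, and the other 5 measured genes ran from -0.37 for Mrpl34 to 0.38 for Abhd8.

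**Figure D4:**
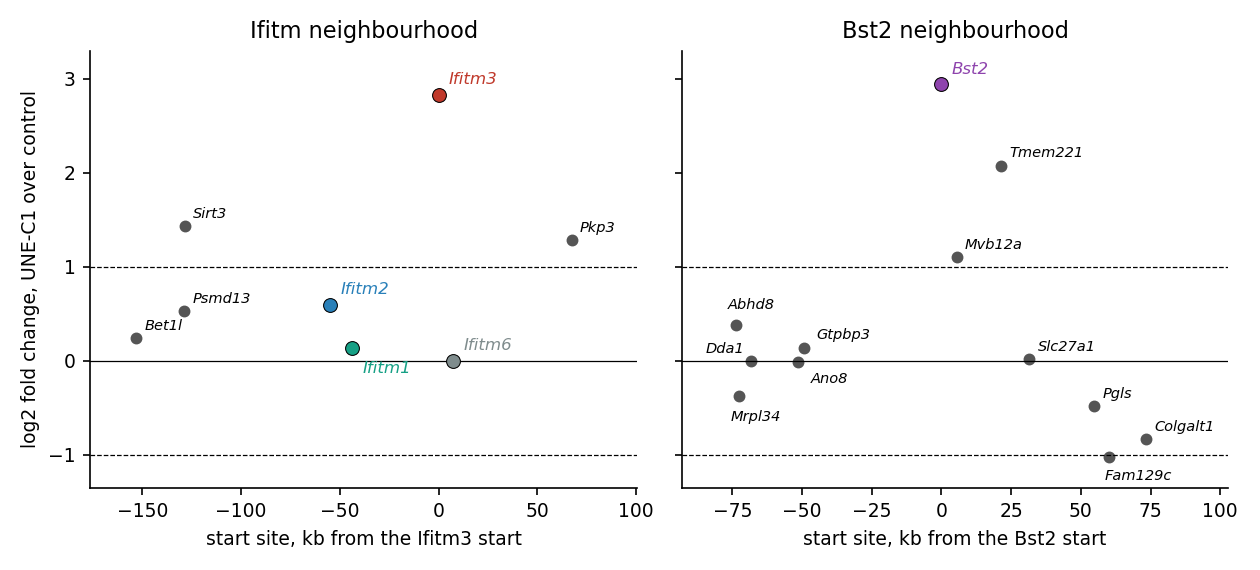
Log2 fold change (y axis, UNE-C1 over control) of the genes past the floor near the Ifitm cluster (left) and Bst2 (right) against the distance of their start from that of Ifitm3 or Bst2 in kb (x axis); dashed lines mark 2-fold differences, coloured points are the members. Ifitm3 at 2.83 stands above Ifitm2, Ifitm1 and Ifitm6 in the cluster, and Mvb12a (1.11) and Tmem221 (2.08) are the higher genes beside Bst2.

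Interferon signalling, which is known to drive several of the members, was followed through a list of 15 genes. They were chains of the type I and type II (interferon gamma) receptors, kinases, transcription factors and the type I interferon gene Ifnb1. Of the 14 past the floor, 7 were higher by 2-fold or more and none lower (median 0.98), against 9.31% and 9.42% of all compared genes. With plain totals 4 were higher and 1, the type II receptor chain Ifngr1, lower. Stat2, a subunit of the complex that binds ISRE, had 773 and 4638 reads and was 7.08-fold higher (interval 6.56 to 7.65). Irf9, another subunit, was 1.66-fold higher (1.56 to 1.77). Irf7, which amplifies interferon production, was 36.7-fold higher, against 2.70-fold for Irf1. Of the type I receptor chains, Ifnar2 had a log2 fold change of 1.23 and Ifnar1 of 0.01, the latter -0.33 with plain totals. Ifnb1 had no control read and 1 with UNE-C1. All 30 genes of a list of interferon-stimulated genes without the members were at least 2-fold higher, under all 4 other scalings too, with a median of 2.74 and a range from 1.55 (Eif2ak2) to 6.31 (Oasl1). This list was chosen with earlier results of these data known, so its 30 of 30 is not independent of them. Against that list Ifitm3 and Bst2 lay near the middle, and Ifitm1, Ifitm2 and Ifitm6 below its lowest gene.

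Of 13 other factors that act at membranes against viruses, 8 were higher by 2-fold or more and none lower. Of all compared genes 9.31% were higher and 9.42% lower. With plain totals 5 of the 13 were higher, against 657 of the 10469 compared genes. This list too was chosen with earlier results of these data known. The highest of the 13 were Rsad2, which encodes viperin (97.3-fold, interval 93.3 to 101), and the guanylate-binding proteins Gbp5 (24.6-fold) and Gbp2 (11.6-fold). Lgals3bp was 3.48-fold higher and Ch25h, which makes an oxysterol that hinders fusion, 4.42-fold on 36 and 135 reads. Ly6e, which blocks coronavirus fusion, had 12976 and 24181 reads and was higher by a ratio of 2.20 (2.15 to 2.25), Ncoa7 2.21-fold and March1 2.10-fold. These 3 were under 2-fold with plain totals. Serinc3 and Cd74, the latter known to block cathepsins on the entry route, stood at 0.00 and -0.00, and March8 at -0.61.

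Of 11 genes past the floor that handle the Ifitm proteins, 1 was higher and 1 lower by the 2-fold mark (median -0.12), shares close to the 9.31% and 9.42% of all compared genes. The lower was Nedd4, a ubiquitin ligase known to mark IFITM3 for degradation, with 509 and 182 reads (2.37-fold lower). The higher was Fyn, a kinase known to phosphorylate IFITM3, with 410 and 1070 reads (ratio 3.08, interval 2.74 to 3.46). Zmpste24, the protease that IFITM proteins are known to work with, stood at -0.65. The palmitoyltransferases Zdhhc20, Zdhhc3 and Zdhhc7, which attach fatty acids to them, stood at -0.26, 0.00 and 0.32, and the methyltransferase Setd7 at -0.08. For tetherin, 1 of 9 genes of its sorting and signalling was at least 2-fold higher, Traf6 (264 and 568 reads, log2 fold change 1.29, or 0.96 with plain totals), and none lower. The share higher was again close to the 9.31% of all compared genes. Hgs, an ESCRT-0 subunit that sorts tetherin to lysosomes, stood just under 2-fold at 0.97. The 5 subunits of the GPI transamidase, which attaches the lipid anchor, ran from -0.40 (Pigu) to 0.06 (Pigt).

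Markers of other cell types were measured because these genes are also used as or known from markers. In bulk RNA, fewer cells of a type and less RNA per cell cannot be told apart. Of 6 plasmacytoid dendritic cell markers past the floor, a list without Bst2, none was 2-fold higher and 1, Ptprs, was lower (ratio 0.365). Of the others, Runx2 (ratio 1.77, interval 1.53 to 2.05), Pacsin1 (1.75, 1.30 to 2.35) and Tcf4 (1.55, 1.44 to 1.66) were above 1, and Spib (0.734) and Ccr9 (0.590) below it. The list's summed level was 187 CPM in control and 209 with UNE-C1, mostly Tcf4 (1370 and 1801 reads), and Siglech, a defining marker picked out for that reason, had 9 reads and 0, which allows up to 0.211 CPM. The other 5 of the 11 listed markers, Siglech among them, were under the floor. The part of plasmacytoid cells in the 7.85-fold of Bst2 was not tested. Neutrophil markers, beside which Ifitm1 and Ifitm6 can be read, were lower: 11 of 13 at least 2-fold (median -1.42), with a summed level of 8335 and 3220 CPM, led by S100a8 (50582 and 18226 reads) and S100a9. Monocyte and macrophage markers were 4 of 11 higher and 4 lower, with sums of 4045 and 3941 CPM, from Fcgr1 at 3.55 to Mrc1 at -3.56. Of 10 conventional dendritic cell markers past the floor, 1 was higher, Xcr1 (log2 fold change 1.76), and 2 were lower, Clec9a (-1.75) and Itgax, which encodes CD11c (12693 and 3493 reads, 3.08-fold lower). Their list summed to 9310 and 8270 CPM, and H2-Ab1, an MHC class II gene, had 45713 and 36789 reads. Mast cell, basophil and eosinophil markers had none higher and 3 of 8 lower, with sums of 1233 and 810 CPM. Of the B cell and plasma cell list 1 gene passed the floor, Sdc1 at 1.04, and of the T and natural killer cell list none, with 83 and 33 reads in all. The part of the neutrophil and monocyte markers in the values of Ifitm1, Ifitm2 and Ifitm6 was not tested.

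**Figure D5:**
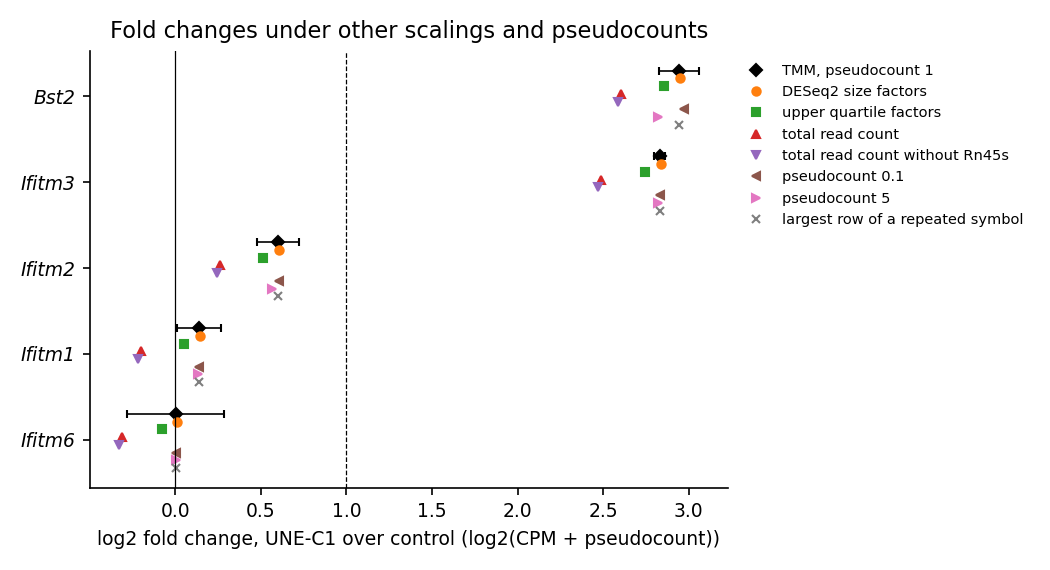
Log2 fold change of each member (x axis) with TMM and a pseudocount of 1 (black diamonds, with 95% counting intervals) and under 7 other choices of scaling, pseudocount or repeated symbols (other marks); the solid line is 0 and the dashed line 2-fold. Ifitm3 and Bst2 stay between 2.47 and 2.97, and Ifitm1 and Ifitm6 lie on both sides of 0.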

How the data were processed

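Read counts per gene symbol were deposited by the authors as whole numbers with no normalization, 14857198 reads in control and 15975821 in UNE-C1; the unit was read from the values. A QuantSeq kit and 500 ng of total RNA were used for each, per the labels' protocols. Bowtie2, edgeR and mm10 are named in the submitters' processing notes, without versions or roles. For the counter, annotation and strand setting: not given in the sources used here. No molecular identifiers are named, so intervals and floors cover counting error only.

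Each file holds 23282 entries; 35 repeated symbols were summed. TMM factors (edgeR 4.0.16, R 4.3.3) were 1.13 and 0.888. Genes with at least 50 reads in 1 library were compared, with a pseudocount of 1 CPM. Ratios have exact conditional binomial 95% intervals (scipy 1.17.1), ratios between members Wald intervals, and levels per kb exact Poisson intervals. No p-value was computed. The procedure was tested on data simulated with counting error only, which leaves out replicate spread and scaling error. Named genes were the members, 5 lists in full, the largest and most abundant of other lists, neighbours within 100 kb and the 3 nearest genes in level. The members and lists were chosen with earlier results of these data known. Positions are from GENCODE M21. Protein sequences were not used here. A gene counted in the interferon lists is not reported by name here.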

Additional observations from a re-analysis of the deposited data

How the results depend on the processing

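The 5 fold changes were recomputed under 7 other settings: DESeq2 size factors, upper quartile factors, plain library totals with and without Rn45s, pseudocounts of 0.1 and 5, and the largest entry of a repeated symbol. The counts and medians were also recomputed with no floor and with floors of 10 and 200 reads, 10 settings in all. With plain totals the log2 fold changes were -0.20 for Ifitm1, 0.26 for Ifitm2 (also the members' median), 2.49 for Ifitm3, -0.31 for Ifitm6 and 2.60 for Bst2. With Rn45s left out of the totals they were -0.22, 0.24 (also the median), 2.47, -0.33 and 2.59 in the same order, and 642 genes were at least 2-fold higher against 975; the last count was added after seeing the data. These shifts are those of the median gene, -0.33 and -0.34. Upper quartile factors gave 2.74 for Ifitm3 and a pseudocount of 5 gave 2.82 for Bst2. With a floor of 200 reads, which Ifitm6 did not pass, the members' median was 1.71. No paired analysis was possible because each group has 1 library, and no replicate could be left out. Depth limits Ifitm6, on 194 and 165 reads, and the neighbours with fewer than 50 reads.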

Other observations

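The remaining genes of the CD225 family, to which the Ifitm genes belong, were close to silent in both libraries. Ifitm10, Tmem233, Syndig1 and Syndig1l had no read in either, Prrt1 had 1 and 0, Prrt2 12 and 3, and Ifitm7 1 and 4 reads. Tusc5, known from fat cells, had no control read and 12 with UNE-C1, and Tmem91 3 and 13 (ratio 5.11, interval 1.40 to 28.0). All of these lie below the floor of 50 reads and were not compared.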
